A study of Homo sapiens and Mus musculus with 20 samples.

Results

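The binding sites of full-length Satb1 (FL) were compared with those of Satb1 lacking its homeodomain (∆HD) in MCF10A cells. The members were every peak of the 2 deposited lists, 22877 for FL and 50537 for ∆HD, from 2 of the 20 samples of the series. A peak counted as shared when it overlapped a peak of the other list by 1 bp or more on hg19. By this rule 20265 FL peaks and 20153 ∆HD peaks were shared. The remaining 2612 FL peaks are called FL-only here and the remaining 30384 ∆HD peaks ∆HD-only.

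Satb1 is a nuclear protein that organizes chromatin in thymocytes and binds A/T-rich DNA. It carries an N-terminal oligomerization domain, a pair of CUT domains (CUT1 and CUT2) and a C-terminal homeodomain (HD), and both kinds of domain are DNA-binding folds. Homeodomains of other proteins commonly read short words with a TAAT core.

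The host line, MCF10A, comes from human breast epithelium and makes no Satb1 of its own. Both constructs were C-terminal eGFP fusions under a cumate-inducible promoter. They were introduced with lentivirus and kept as stable pools of transduced cells sorted through the same fluorescence gate. Chromatin was precipitated with an antibody to GFP (Ab290), so the same antibody recognized both proteins. Values from 3 other MCF10A lists are given beside the results where they bear on a class of peaks. These were N-C1, a fusion with only the N-terminal and CUT1 domains, and FL after 2 h with camptothecin, an inhibitor of topoisomerase I, or with ICRF-193, an inhibitor of topoisomerase II. Accessible regions were taken from ATAC-seq peaks of native MCF10A and of MCF10A expressing Satb1. One peak list per construct was analysed, without replicate lists, so differences have no spread between replicates to be compared with, and none was tested. The 95% intervals cover counting error only, and neighbouring peaks are not independent.

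Sites that differed between the lists are shown first, each as 121 bases of hg19 centred on the FL summit, or on the ∆HD summit where no FL peak was called. Capitals mark exact matches to the Satb1 consensus YTAWTAR, in which Y stands for C/T, W for A/T and R for A/G. The consensus reads the same on both strands. The first 4 sequences belong to the strongest FL-only peaks in introns or between genes.
near SLITRK5 (chr13:87726680-87726800): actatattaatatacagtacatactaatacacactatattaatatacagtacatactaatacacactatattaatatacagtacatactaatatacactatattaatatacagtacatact
MAGI3 (chr1:113958696-113958816): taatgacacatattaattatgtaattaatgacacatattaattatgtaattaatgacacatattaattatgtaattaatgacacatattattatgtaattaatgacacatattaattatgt
APLF (chr2:68744855-68744975): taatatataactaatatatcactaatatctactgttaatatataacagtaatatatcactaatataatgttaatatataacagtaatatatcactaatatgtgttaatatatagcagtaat
near NR2F2 (chr15:97600301-97600421): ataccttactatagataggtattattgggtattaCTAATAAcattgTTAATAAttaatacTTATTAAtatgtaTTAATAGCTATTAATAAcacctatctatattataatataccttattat
The next 2 lie at shared sites that ranked near the top of the FL list and near the bottom of the ∆HD list.
near PFKP (chr10:3012722-3012842): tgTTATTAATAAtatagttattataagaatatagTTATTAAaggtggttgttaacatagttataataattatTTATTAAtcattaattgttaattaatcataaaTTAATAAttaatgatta
USP25 (chr21:17176719-17176839): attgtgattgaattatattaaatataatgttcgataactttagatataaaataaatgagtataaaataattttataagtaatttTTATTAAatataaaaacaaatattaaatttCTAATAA
These 2 lie at shared sites that moved the other way, from the bottom of the FL list toward the top of the ∆HD list.
near TEKT5 (chr16:10795380-10795500): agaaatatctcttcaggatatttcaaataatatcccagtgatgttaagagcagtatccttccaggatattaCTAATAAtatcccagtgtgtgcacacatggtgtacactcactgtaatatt
CENPC (chr4:68354347-68354467): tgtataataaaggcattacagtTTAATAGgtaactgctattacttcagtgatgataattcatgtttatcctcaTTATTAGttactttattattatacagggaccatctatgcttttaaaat
These 2 belong to the strongest ∆HD-only peaks in introns.
DPP6 (chr7:153961942-153962062): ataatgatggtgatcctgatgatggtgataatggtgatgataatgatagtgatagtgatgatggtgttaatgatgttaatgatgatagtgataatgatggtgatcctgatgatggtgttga
TRAPPC12 (chr2:3440539-3440659): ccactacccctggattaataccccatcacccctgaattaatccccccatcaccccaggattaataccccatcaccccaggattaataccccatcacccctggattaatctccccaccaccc
The last is an intronic site of GPC6, a glypican, that ranked near the top of both lists.
GPC6 (chr13:94070762-94070882): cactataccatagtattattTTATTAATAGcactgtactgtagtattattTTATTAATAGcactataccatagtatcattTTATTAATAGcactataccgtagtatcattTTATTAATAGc
Over these 121 bases the 4 FL-only sequences held 79.3% to 83.5% A/T and the 2 that dropped in rank 87.6% and 89.3%. The 2 that gained rank held 65.3% and 73.6%, and the 2 ∆HD-only sequences 65.3% and 47.1%. The sites near SLITRK5, which encodes a synaptic adhesion protein, and in MAGI3, a scaffold protein gene, were tandem repeats, and so were both ∆HD-only sites and the GPC6 site.

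Of all FL peaks, 11.4% were absent from the ∆HD list, and of all ∆HD peaks 60.1% were absent from the FL list. FL peaks were thus found in the ∆HD list in 88.6% of cases (95% interval 88.2 to 89.0) and ∆HD peaks in the FL list in 39.9% (39.5 to 40.3). The ∆HD list is the longer one, and the depth behind each list is unknown. When the ∆HD list was cut to its 22877 most significant peaks, 72.5% of FL peaks and 72.0% of those ∆HD peaks were shared. Most shared pairs lay on top of each other. There were 20283 overlapping pairs with a median overlap of 313 bp, and 5 pairs overlapped by 50 bp or less. Just outside the rule, 15 FL-only peaks had a ∆HD peak within 100 bp of their edge and 160 had one within 1000 bp.

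Peak strength separated the unshared peaks of the 2 lists in different ways. Fold enrichment is the authors' ratio of ChIP signal to local background at each peak, and peaks were ranked by it within their own list. Among ∆HD peaks, the share found in the FL list was 6.08% (5.43 to 6.77) in the weakest of 10 equal bins, 21.8% in the fifth and 99.5% (99.3 to 99.7) in the strongest. The ∆HD-only peaks were therefore mostly weak, with a median fold enrichment of 5.56 against 9.91 at shared ∆HD peaks. Among FL peaks, the share found in the ∆HD list was 86.4% (84.9 to 87.7) in the weakest bin and 89.2% (87.8 to 90.4) in the strongest, and it lay between 84.5% and 91.5% in all 10. The FL-only peaks were thus spread over the whole FL list, with a median fold enrichment of 6.64 against 7.32 at shared FL peaks. In the strongest bin, 100% of the 248 FL-only peaks and 82.6% of the 23 ∆HD-only peaks were present in the ICRF-193 list.

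**Figure D1:**
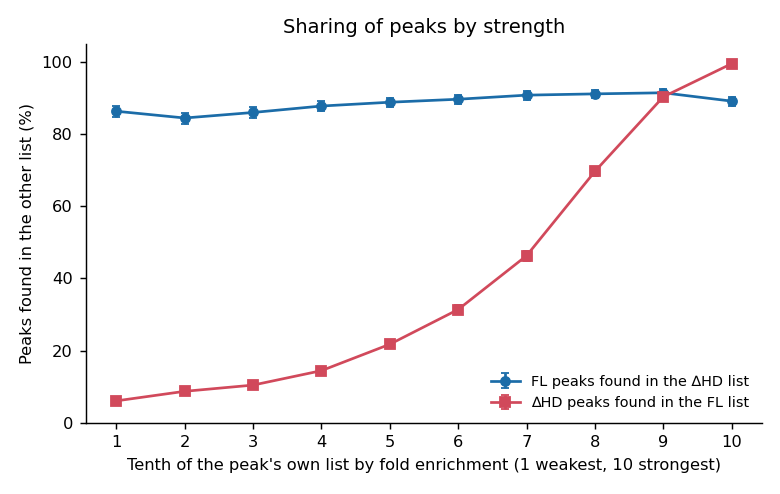
Share of peaks found in the other list (y axis, percent) for each of 10 equal bins of a list ranked by fold enrichment (x axis, 1 weakest, 10 strongest). Points are shares and bars 95% Clopper-Pearson intervals. ∆HD peaks climb from 6.08% to 99.5%, while FL peaks stay between 84.5% and 91.5%.

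FL-only peaks stood out by their sequence. In 200 bp at the peak midpoint they held 77.97% A/T (SD 6.18 across the 2605 peaks that could be read) against 71.67% (SD 4.95) at shared FL peaks, a difference of 6.31 percentage points (95% interval 6.06 to 6.55). The flanks 1 to 2 kb away held 62.62% and 62.45% A/T, a difference of 0.173 points (-0.0293 to 0.375), so the excess was measured in the peak and not in the flanks. The share of FL peaks found in the ∆HD list was 96.9% (94.6 to 98.4) below 60% A/T. It stayed at 97.4% between 60% and 65%, 96.5% between 65% and 70% and 93.9% between 70% and 75%. It was 84.6% (83.7 to 85.6) between 75% and 80%, 49.8% (47.1 to 52.6) between 80% and 85%, and 10.9% (7.96 to 14.5), or 41 of 375 peaks, from 85% upward. The ∆HD list as a whole held 11 peaks of 85% A/T or more among 50537, whereas the FL list held 375 among 22877.

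The other MCF10A lists were read at the same FL peaks. In the N-C1 list, which also comes from a protein without HD, 98.7% of FL peaks of 70% to 75% A/T were found, then 94.2%, 71.0% and 43.7% (38.6 to 48.9) in the 3 classes above. In the lists of FL protein after drug treatment the order was the opposite. After ICRF-193, 60.4% of FL peaks below 60% A/T were found and 100% of those of 80% or more, and after camptothecin the shares were 45.3% below 60% and 98.9% from 85% upward. Peaks of 85% A/T or more numbered 118 of 62856 in the N-C1 list, 460 of 24475 after camptothecin and 617 of 37350 after ICRF-193. Of the 2612 FL-only peaks, 94.8% (93.8 to 95.6) were present after ICRF-193, 81.3% after camptothecin and 64.1% (62.2 to 65.9) in the N-C1 list. At shared FL peaks the corresponding shares were 92.7%, 81.7% and 99.2%. The peak lists hold no reads, so the base composition of the sequenced fragments in each library was not tested.

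**Figure D2:**
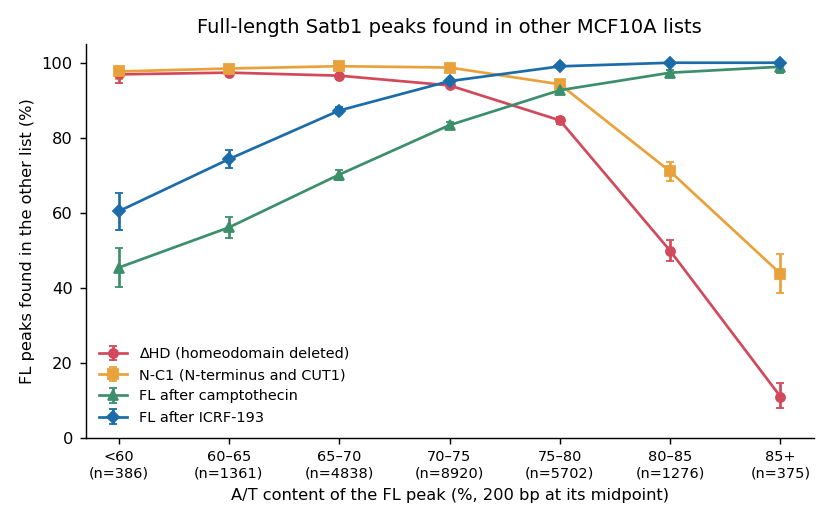
Share of FL peaks found in 4 other MCF10A lists (y axis, percent) by the A/T content of the FL peak in 200 bp (x axis, number of FL peaks in brackets). Points are shares and bars 95% Clopper-Pearson intervals. In the ∆HD list the share is 96.9% in the lowest class and 10.9% in the highest, in the N-C1 list 43.7% in the highest, and after ICRF-193 it is 60.4% in the lowest and 100% in the highest.

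FL-only peaks held longer stretches without G or C. Their longest run without G or C within 200 bp measured 24.4 bp on average against 14.4 bp at shared FL peaks, and 59.1% of FL-only peaks had a run of 20 bp or more against 11.6%. TpA steps made up 16.4% of dinucleotides against 12.5%, ApT steps 16.4% against 12.7%, and ApA or TpT steps, the most frequent of these, 28.5% against 25.9%. The longest strictly alternating run of T and A averaged 5.97 bp against 4.93 bp. The longest run of a single base, A or T, did not exceed that of shared peaks (5.26 bp against 5.33 bp). At ∆HD-only peaks the longest run without G or C measured 12.5 bp, against 14.0 bp at shared ∆HD peaks, and 3.51% had a run of 20 bp or more against 9.597%.

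The words inside the consensus differed as well. Of the 7948 consensus matches in 400 bp at FL-only peaks, 65.2% (64.2 to 66.3) were TTAATAA or its reverse complement, against 45.6% (45.2 to 46.0) of 55004 at shared FL peaks, a difference of 19.6 percentage points (18.5 to 20.8). CTAATAA made up 19.0% against 30.6%, TTAATAG 10.9% against 14.4%, and CTAATAG, the version with the most G and C, 4.89% against 9.38%. The same contrast held among FL peaks of like A/T content. TTAATAA reached 59.9% (57.3 to 62.5) of matches at FL-only peaks against 45.3% (44.6 to 45.9) at shared ones between 70% and 75% A/T, and 61.3% against 51.6% between 75% and 80%. FL-only peaks held 3.04 matches on average (SD 2.13) and shared FL peaks 2.71 (SD 1.48), but within each A/T class from 65% upward the order turned. FL-only peaks held 2.60 against 2.65 matches between 70% and 75% A/T, 2.84 against 2.92 between 75% and 80%, 3.13 against 4.22 between 80% and 85% and 4.58 against 7.98 from 85% upward. The consensus was found in 96.6% of all FL peak windows of 400 bp and in 93.7% of all ∆HD windows, compared with 31.96% and 31.8% of windows of the same length 1.5 kb away. This is a description, since the study found its consensus by motif discovery in Satb1 peaks of the same cells. Flanks 1 to 2 kb away also held less A/T, 62.5% for FL and 62.4% for ∆HD, against 72.4% and 69.8% in 200 bp at the peaks.

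All words of 6 bases, each pooled with its reverse complement, were then compared between FL-only and shared FL peaks of like A/T content. Between 75% and 80% A/T, 862 words were present in at least 5% of either class. The words gained most were ATATAA, present in 66.7% of 876 FL-only peaks and 47.6% of 4826 shared peaks, ATATAT (45.8% and 29.2%) and TATATA (38.58% and 22.03%, a difference of 16.56 points, 13.17 to 20.02). The words lost most were CATTAA (39.2% and 49.4%), TAATGA (36.5% and 46.1%) and CTAATA (65.3% and 74.8%). TATATA was also among the 3 words gained most in the classes on either side, with 28.3% against 15.5% between 70% and 75% A/T and 48.6% against 26.9% between 80% and 85%. TAATTA, which joins TAAT to its reverse complement, was present in 57.2% of FL-only peaks and 51.5% of shared ones between 75% and 80% A/T. These words were named after their values were seen.

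A few FL-only peaks were tandem repeats. A peak was counted as one when at least 70% of the bases in 300 bp matched the base a fixed distance of 6 to 100 bp further on. This held for 31 of 2612 FL-only peaks (1.19%, 0.808 to 1.68) and 84 of 20265 shared FL peaks (0.415%, 0.331 to 0.513), and for 19 of the 334 FL-only peaks of 85% A/T or more. Without tandem repeats the A/T difference between FL-only and shared FL peaks was 6.19 points.

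The strongest FL-only peak lay 597 kb from the start of SLITRK5 on chromosome 13 (87726237 to 87727437). It ranked 46 of 22877 in the FL list with a fold enrichment of 51.4, held 80.5% A/T and 0 consensus matches, and repeated itself at a distance of 32 bp with 99.3% identity. The intronic peak of MAGI3 on chromosome 1 (113958412 to 113959021) ranked 151, also without a consensus match. An intronic peak of APLF, a DNA repair factor gene, ranked 171 and held 5 matches, all of them TTAATAA. The peak 724 kb from NR2F2, which encodes the nuclear receptor COUP-TFII, ranked 182 and held 8. The other 6 of the 10 strongest FL-only peaks lay in introns of ATXN1 and PLCH1 and between genes, nearest to NALCN, AASDHPPT, CDH9 and CADM2. All 10 held between 80.5% and 87.5% A/T, were present after camptothecin and after ICRF-193, and lay between 0.771 kb and 46.8 kb from the nearest ∆HD summit. All but the SLITRK5 and APLF peaks were in the N-C1 list.

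∆HD-only peaks held less A/T than shared ∆HD peaks. They held 68.97% A/T (SD 5.06) against 71.11% (SD 4.98), a difference of -2.13 percentage points (-2.22 to -2.04). They held 1.95 consensus matches (SD 1.09) against 2.68 (SD 1.44), a difference of -0.727 (-0.750 to -0.704), and 7.96% held none against 3.70%. Their median width was 383 bp against 512 bp, a difference of -129 bp (-131 to -128). Fold enrichment moved with these measures. Within 4 equal bins of the ∆HD list by fold enrichment, the A/T difference was -3.46 points (-3.84 to -3.07) in the weakest bin and -1.70 (-1.99 to -1.40) in the strongest, and the motif difference lay between -0.733 and -0.474 in all 4. The width difference shrank to medians of 338 bp against 349 bp in the weakest bin. At least 5 matches were present at 1.28% of ∆HD-only peaks and 8.18% of shared ∆HD peaks.

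Words of 6 bases were compared at ∆HD peaks of intermediate strength, the third of 4 equal bins of the list by fold enrichment. Between 70% and 75% A/T, CATTAA was present in 49.1% of 2923 ∆HD-only peaks and 41.9% of 2239 shared peaks, and TAATGA in 48.3% and 41.4% (a difference of 6.87 points, 4.13 to 9.59). These were the 2 words gained most of 1089. CTAATA, which begins the consensus words CTAATAA and CTAATAG, was lost most, with 66.6% against 76.1%. CATTAA was again the word gained most between 65% and 70% A/T (45.3% against 35.3%), and CTAATA again the one lost most (70.7% against 78.4%). CATTAA and TAATGA were thus less frequent at FL-only than at shared FL peaks, and more frequent at ∆HD-only than at shared ∆HD peaks. They were named after their values were seen.

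The number of motifs and fold enrichment were set side by side in each class. At shared FL peaks the mean fold enrichment was 8.17 (SE 0.0914) with 1 match, 10.8 (SE 0.119) with 4 and 36.6 (SE 0.872) with 7 or more. At shared ∆HD peaks it was 10.8 (SE 0.105), 12.2 (SE 0.112) and 20.6 (SE 0.987). At FL-only peaks it was 7.30 (SE 0.215), 9.22 (SE 0.257) and 18.9 (SE 0.846). At ∆HD-only peaks it was 5.72 (SE 0.0166) with 1 match, 6.16 (SE 0.0357) with 4 and 6.34 (SE 0.765) with 7 or more, the last from 6 peaks. Peaks without a match did not continue this order. Their mean was 9.47 (SE 0.287) at shared FL, 13.6 (SE 0.392) at shared ∆HD, 10.3 (SE 0.851) at FL-only and 5.78 (SE 0.0355) at ∆HD-only peaks. A/T content moved with motif number, from 70.6% at shared FL peaks with 1 match to 77.9% at those with 7 or more, and its part in these values was not tested. Fold enrichment also entered the classes themselves, since nearly all of the strongest ∆HD peaks were shared. The largest value was 22.5 at ∆HD-only and 88.0 at shared ∆HD peaks, so any rise at ∆HD-only peaks was limited in advance.

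**Figure D3:**
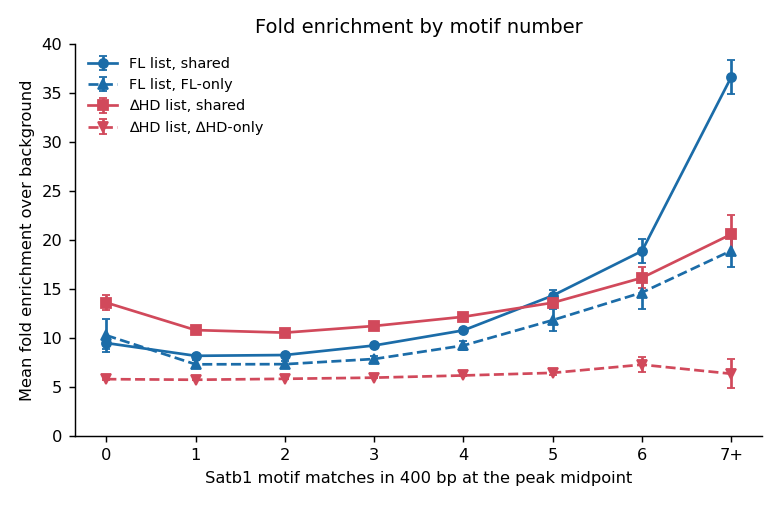
Mean fold enrichment over background (y axis) by the number of consensus matches in 400 bp (x axis, 7+ is 7 or more) for shared and unshared peaks of both lists, with bars for the 95% interval of the mean across peaks. The mean is 36.6 at shared FL peaks with 7 or more matches and 6.34 at such ∆HD-only peaks. Few of the strongest ∆HD peaks are ∆HD-only, which limits the mean of that class.

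The spacing of matches was read at peaks with exactly 2. In 25.4% (24.3 to 26.6) of 5908 shared ∆HD peaks the matches started 8 to 12, 18 to 22 or 28 to 32 bp apart, near whole turns of the DNA helix, and in 14.5% (13.6 to 15.5) they started 13 to 17, 23 to 27 or 33 to 37 bp apart. At 10963 ∆HD-only peaks the shares were 17.99% (17.27 to 18.72) and 12.8% (12.2 to 13.5). The ratio of near to off whole turns was 1.75 at shared ∆HD peaks, 1.40 at ∆HD-only peaks, 1.75 at shared FL peaks and 1.73 at FL-only peaks.

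Of the 30384 ∆HD-only peaks, 71.5% (71.0 to 72.0) were present in the N-C1 list, 29.5% (29.0 to 30.0) after ICRF-193 and 12.05% (11.69 to 12.42) after camptothecin. At shared ∆HD peaks the shares were 99.2%, 92.8% and 81.8%. The share after ICRF-193 depended on strength, with 15.8% of ∆HD-only peaks in the weakest of the 4 bins and 69.1% in the strongest. It was 52.5% when the ∆HD list was cut to the length of the FL list. In total 74.2% of ∆HD-only peaks and 99.0% of FL-only peaks were present in at least 1 of the 3 lists.

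The strongest ∆HD-only peak lay in an intron of DPP6, a potassium channel subunit gene, and ranked 1096 of 50537 with a fold enrichment of 22.5. It held 66.0% A/T and 0 consensus matches, and 77.6% of its bases recurred 81 bp further on. An intronic peak of TRAPPC12, which encodes a vesicle tethering subunit, ranked 1405. It held 46.5% A/T and 0 matches, and was a repeat with a distance of 91 bp and 89.95% identity. The intronic CALCB peak, in a gene of a calcitonin-related neuropeptide, ranked 2512 and repeated at 63 bp with 75.5% identity. The others of the 10 lay in introns of VPS16, SGCD, PDE1A and ELMO1 and between genes, nearest to CIBAR1, STX16 and PAWR. The 10 held between 46.5% and 74.5% A/T, had fold enrichments between 14.4 and 22.5, and were all in the N-C1 list. Among the peaks within the top 10% of a list, 3 of 23 ∆HD-only peaks and 12 of 245 FL-only peaks were tandem repeats, against 1.05% of 5034 shared ∆HD and 1.38% of 2035 shared FL peaks.

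At 19997 sites 1 FL peak and 1 ∆HD peak overlapped each other and no other peak. Across these pairs the Spearman correlation of the 2 fold enrichments was 0.561, a description without a test since both values share the sequence, the copy number and the local background. Rank moved with A/T content. Among the pairs, the median percentile in FL was 40.9 between 60% and 65% A/T, 49.4 between 70% and 75%, 56.9 between 75% and 80%, 85.1 between 80% and 85%, and 98.6 from 85% upward (36 pairs). The median percentile in ∆HD at the same sites was 51.7, 53.3, 42.6, 25.1 and 11.6. From 75% A/T upward the median was higher in FL than in ∆HD, and below 75% it was lower. These percentiles are among pairs. Within the whole ∆HD list, most of whose weak peaks are unshared, the medians of the 2 highest classes were 61.8 and 43.3. The median fold enrichment of the 36 pairs was 37.5 in the FL list and 6.03 in the ∆HD list. Pairs hold only shared FL peaks, which were the stronger ones in these classes. Between 80% and 85% A/T the median FL fold enrichment was 14.2 at shared and 7.79 at FL-only peaks. From 85% upward it was 39.0 and 11.1, against 12.4 at all FL peaks of that class. The high FL percentiles therefore describe pairs and not all A/T-rich FL peaks.

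The summits also moved apart there. Summits lay over 100 bp apart at 4.60% (4.16 to 5.08) of pairs between 70% and 75% A/T, 24.5% (21.2 to 28.1) between 80% and 85% and 66.7% (49.0 to 81.4) from 85% upward. The classes are set by the A/T content of the FL peak, which fixes a high value at the FL side. As a description, in the last class 200 bp around the FL summit held 85.2% A/T and 200 bp around the ∆HD summit 71.2%. The median peak width was 767 bp in FL and 449 bp in ∆HD in that class, whereas between 70% and 75% A/T it was 313 bp and 515 bp.

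**Figure D4:**
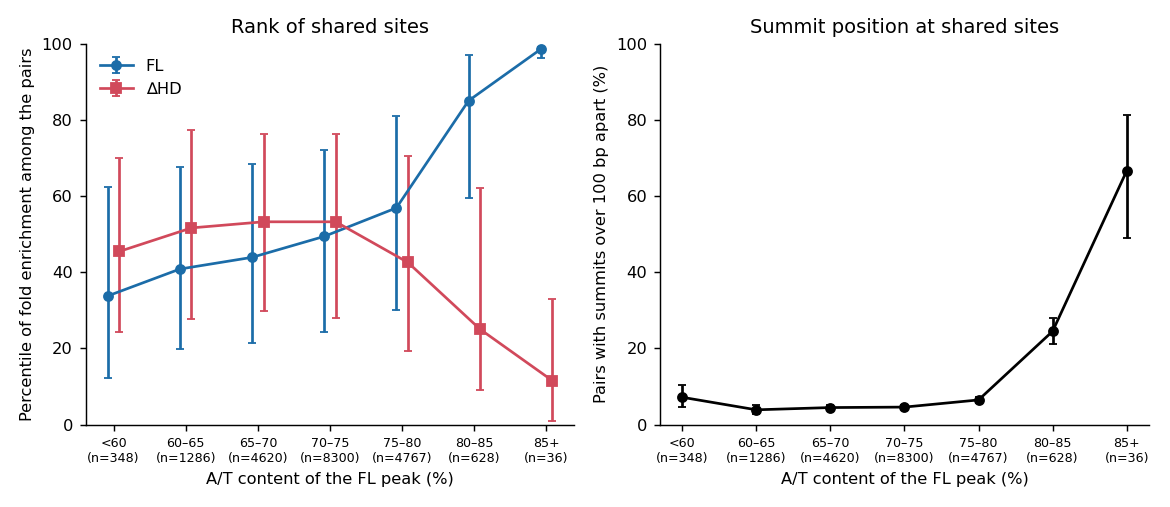
Left, percentile of fold enrichment among the 19997 pairs (y axis) in FL and ∆HD by A/T content of the FL peak (x axis), as medians with bars from the lower to the upper quartile. Right, share of pairs with summits over 100 bp apart (y axis, percent) with 95% Clopper-Pearson intervals. The FL median lies above the ∆HD median from 75% A/T upward, at 56.9 and 42.6 between 75% and 80% and at 98.6 and 11.6 in the highest class, where 66.7% of summits lie over 100 bp apart.

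Pairs that changed rank by 25 percentile points or more were described as groups. Of all pairs, 15.2% (3046) were lower in ∆HD by that much and 15.3% (3066) were higher. The pairs that were lower held 74.6% A/T (SD 5.05), 3.11 matches (SD 1.65) and 53.5% TTAATAA among their matches. Those that were higher held 70.1% (SD 4.56), 2.41 (SD 1.25) and 44.01%. Accessibility in cells expressing Satb1 was 3.55% (2.92 to 4.26) in the first group, 4.01% (3.35 to 4.77) in the second and 4.71% (4.36 to 5.08) in the rest. Genic shares were 38.4%, 39.5% and 41.2%.

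Among pairs in the top 10% of at least 1 list, the largest loss of rank was at an intergenic site 95.7 kb from PFKP, a phosphofructokinase gene, on chromosome 10 (3012364 to 3013183). It ranked 111 in FL with a fold enrichment of 47.5 and 50440 in ∆HD with 2.99, and held 87.0% A/T and 13 matches, 12 of them TTAATAA. An intronic site of the deubiquitinase gene USP25 ranked 504 and 50203, and one of NOS1, the neuronal nitric oxide synthase gene, 634 and 50318. The other 5 of the 8 were in introns of HORMAD2, KCNH7 and SGCD and near SLC38A1 and MATN1. The 8 sites held 81% to 90% A/T and 6 to 13 matches, both read at the FL peak. All were in the N-C1, camptothecin and ICRF-193 lists. Their FL and ∆HD summits lay 36 to 225 bp apart, with 146 bp at PFKP, 225 bp at USP25 and 223 bp at NOS1. At NOS1 the FL summit lay outside the ∆HD peak. Whether such overlapping peaks mark the same site was not tested. The largest gain was 6.65 kb from TEKT5, a tektin gene, with rank 22648 in FL and 2959 in ∆HD. An intronic site of CENPC, a centromere protein gene, moved from rank 22188 to 2659. Further gains lay in an intron of ATP10B and near LONRF1, OLFM4, OR7D2 and TEKT4. The 8 gains held 65% to 72.5% A/T and 1 to 3 matches, and their ∆HD fold enrichments lay between 14.1 and 19.2. Their summits lay 6 to 89 bp apart. These named sites are the extremes of rank change, and the full groups lay closer together in A/T content. Pairs lower in ∆HD by 25 points or more held 74.6% (SD 5.05) and those higher 70.1% (SD 4.56).

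The top of the lists still had sites in common. Of the strongest 1% of FL peaks, 224 of 229 were in the ∆HD list and 39.7% (33.3 to 46.4) overlapped its strongest 1%. The strongest 1% of ∆HD peaks is a larger set of 507, of which 17.9% (14.7 to 21.6) overlapped the strongest 1% of FL. The strongest 1% held 79.0% A/T (SD 5.35) and 7.36 matches (SD 4.07) in FL, but 70.7% (SD 5.48) and 3.81 (SD 2.89) in ∆HD. The site of GPC6 printed above ranked 8 in FL and 6 in ∆HD, with 20 matches in 400 bp. The intronic site of A1CF, an RNA editing cofactor gene, ranked 2 and 31, and the site 633 kb from CT83 on the X chromosome 16 and 1. The sites near TRIB2 and FOXD4L3 ranked 8 and 22, and 1 and 42.

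Accessibility differed little between ∆HD-only and shared ∆HD peaks, and was lower at FL-only than at shared FL peaks. ATAC-seq peaks of native MCF10A cells covered 5.32% of the chromosomes and those of cells expressing Satb1 8.26%. Of cell type marker genes, 10 of 10 mammary epithelial genes had an accessible promoter in native cells, against 3 of 8 T cell genes and 5 of 6 fibroblast genes. These counts do not set epithelium apart from fibroblasts, and the share over all promoters is not given here. In native cells 4.57% (4.34 to 4.81) of ∆HD-only and 4.63% (4.35 to 4.93) of shared ∆HD peaks overlapped an ATAC-seq peak, a difference of -0.0631 percentage points (-0.440 to 0.307). In cells expressing Satb1 the shares were 5.21% and 5.82%, a difference of -0.607 points (-1.02 to -0.202). With accessibility read at the summit base alone that difference was 0.561 points (0.265 to 0.852), and its direction therefore depended on the overlap rule. FL-only peaks overlapped ATAC-seq peaks less often than shared FL peaks, with 2.34% (1.79 to 2.99) against 3.56% (3.31 to 3.82) in native cells, a difference of -1.22 points (-1.80 to -0.525). At the summit base alone the native shares were 1.03% and 1.83%, a difference of -0.797 points (-1.17 to -0.299). Peak width, 286 bp against 317 bp at the median, moved with the difference by overlap, and so did A/T content. Native accessibility was 13.2% at FL peaks below 60% A/T and 1.74% between 75% and 80%. The part of either in the difference was not tested. Among the strongest 1% of peaks, 21.8% (16.7 to 27.7) in FL and 14.4% (11.5 to 17.8) in ∆HD were accessible in cells expressing Satb1. Over all peaks the shares were 4.64% in FL and 5.46% in ∆HD. Peak width was not matched in this comparison.

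Most unshared peaks lay between genes or in introns, as shared peaks did. Of ∆HD-only peaks 41.7% (41.1 to 42.2) had their summit in a protein-coding gene, against 40.4% (39.7 to 41.1) of shared ∆HD peaks, a difference of 1.28 points (0.400 to 2.15). It was 0.448 points (-0.967 to 1.87) with lists of equal length and 0.430 points (-0.443 to 1.30) with genes of every type, where the intervals included 0. FL-only peaks were genic in 36.0% (34.1 to 37.9) of cases and shared FL peaks in 40.4% (39.7 to 41.1), a difference of -4.40 points (-6.34 to -2.42). Promoters, from 1000 bp upstream to 100 bp downstream of a start, held 0.530% of ∆HD-only and 0.459% of FL-only peaks. The median gene holding a ∆HD-only peak was 275 kb long and that holding a shared ∆HD peak 255 kb, a difference of 20.4 kb in favour of ∆HD-only when each peak was counted (20389 bp, 6758 to 32907). When each gene was counted once per class, the difference was -9326 bp, so its direction depended on the counting.

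Counts per gene tracked gene length. Of 19535 named protein-coding genes, 23.9% had at least 1 ∆HD-only peak, 4% at least 1 FL-only peak, 20.7% at least 1 FL peak and 30.5% at least 1 ∆HD peak. A ∆HD peak without any FL peak was found in 10.6% of genes (2068). ∆HD-only peaks were present in 1.62% of genes under 10 kb, 12.2% between 10 and 50 kb, 70.6% between 100 and 500 kb and 316 of 318 genes over 500 kb. Per Mb of gene body, ∆HD-only peaks numbered 3.60 in the shortest class and 14.2 in the longest, and FL peaks 2.79 and 9.79. The share of genic ∆HD peaks that were ∆HD-only stayed between 58.2% (56.3 to 60.1) and 62.0% (60.8 to 63.2) in the 5 length classes.

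The 10 genes with the most ∆HD-only peaks were all long. CSMD3, a transmembrane protein gene of 1214 kb, held 100 ∆HD peaks, of which 54 were ∆HD-only, and 50 FL peaks. PTPRD, a receptor tyrosine phosphatase gene, held 72 ∆HD peaks with 47 ∆HD-only, and EYS, a photoreceptor gene, 79 with 46. LRP1B, of the LDL receptor family, held 77 with 44. CNTNAP2, PCDH15, CCSER1, DLG2 and ESRRG held between 36 and 39. ESRRG, which encodes an orphan nuclear receptor, held 48 ∆HD peaks and 13 FL peaks. The most FL-only peaks lay in CADM2, an adhesion protein gene, with 7 of its 28 FL peaks, and in ROBO2, an axon guidance receptor gene, with 6 of 33. These last 2 genes were named after their counts were seen.

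Gene lists were read against the same background. Of 29 giant synaptic and adhesion genes matched of 30 listed, 29 had a ∆HD-only peak and 20 an FL-only peak, with a median length of 1369 kb, and 60.6% (57.7 to 63.5) of their 1119 ∆HD peaks were ∆HD-only, against 61.0% over all genes. Counts of genes per list moved with gene length. They are read beside 23.9% of all genes with a ∆HD-only peak, 70.6% of genes between 100 and 500 kb and 99.4% of genes over 500 kb. An FL-only peak was present in 4% of all genes, 12.01% of those between 100 and 500 kb and 49.7% of those over 500 kb. Of 13 type II cadherins, with a median length of 158 kb, 10 had a ∆HD-only peak, and 57.4% (48.1 to 66.3) of the list's 122 ∆HD peaks were ∆HD-only. CDH18 held 28 of 42 and CDH12 15 of 33. Of 26 glutamate receptor genes, with a median of 316 kb, 18 had a ∆HD-only peak and 5 an FL-only peak, and the share of peaks was 63.2% (56.5 to 69.6). Of 14 Eph receptor genes, with a median of 104 kb, 6 had a ∆HD-only peak, and the share was 51.9% (40.5 to 63.1). EPHA6 held 4 FL-only peaks among 21. The intervals of all 4 lists included the 61.0% of all genes.

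The lists of mammary and transcription factor genes hold shorter genes, with medians of 37.6 kb (basal), 42.5 kb (luminal), 76.2 kb (epithelial to mesenchymal transition), 100 kb (SATB, CUX and ONECUT) and 4.22 kb (HOX). Of 15 basal mammary genes, 3 had a ∆HD-only peak and 11 had no peak in either list. Of all genes between 10 and 50 kb, 9.25% had an FL peak, 17.98% a ∆HD peak and 12.2% a ∆HD-only peak. TP63, the basal transcription factor gene, held 3 FL and 7 ∆HD peaks, and EGFR held 2 FL peaks, both FL-only, and 1 ∆HD peak. Of 17 luminal mammary genes, 5 had a ∆HD-only peak and 0 an FL-only peak, beside 23.9% and 4% of all genes. Between 10 and 50 kb these shares of all genes were 12.2% and 1.23%. ERBB4, a receptor tyrosine kinase gene, held 24 FL and 55 of the list's 73 ∆HD peaks, and ESR1, the estrogen receptor alpha gene, 3 and 12. PRLR, the prolactin receptor gene, held 0 and 3. Of 22 genes of epithelial to mesenchymal transition, 10 had a ∆HD-only peak and 1 an FL-only peak. Of all genes between 50 and 100 kb, 34.7% had a ∆HD-only peak and 4.37% an FL-only peak. ZEB1 and TCF4, both transcription factor genes, each held 2 FL and 6 ∆HD peaks. Of 7 SATB, CUX and ONECUT genes, which encode relatives of Satb1 with CUT domains, 4 had a ∆HD-only peak. The share of all genes was 34.7% between 50 and 100 kb and 70.6% between 100 and 500 kb. SATB1 held 2 FL and 5 ∆HD peaks. Of 39 HOX genes, 36 had no peak in either list and 1, HOXA3, had a ∆HD-only peak. Of all genes under 10 kb, 1.29% had an FL peak and 2.61% a ∆HD peak, so most genes of this length held none.

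**Figure D5:**
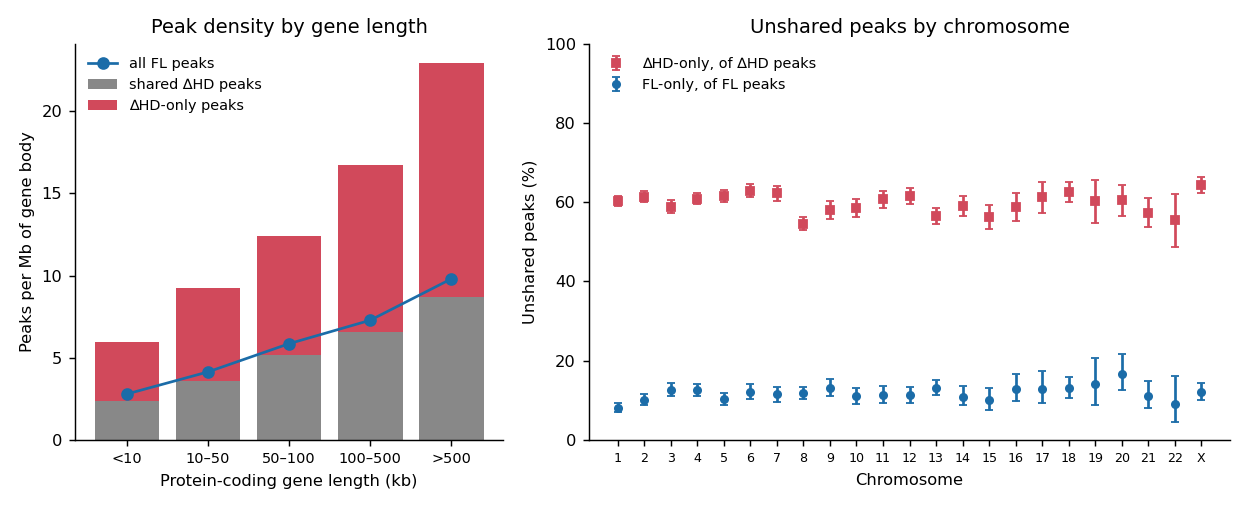
Left, peaks per Mb of gene body (y axis) by length of the protein-coding gene in kb (x axis), with bars stacked from shared and ∆HD-only peaks and points for all FL peaks. Right, share of unshared peaks on each chromosome (y axis, percent) with 95% Clopper-Pearson intervals. ∆HD-only density is 3.60 per Mb in genes under 10 kb and 14.2 in genes over 500 kb, and the ∆HD-only share runs from 54.6% on chromosome 8 to 64.3% on X.

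Clusters held shared and unshared sites together. Summits were chained when 10 kb or less apart. In the ∆HD list 39.5% of peaks lay in clusters of 2 or more and in the FL list 22.8%, but the ∆HD list is also the longer one. Another ∆HD summit lay within 10 kb of 39.2% (38.6 to 39.7) of ∆HD-only and 39.9% (39.3 to 40.6) of shared ∆HD peaks, a difference of -0.759 points (-1.63 to 0.111). An FL summit lay within 10 kb of 20.8% (20.4 to 21.3) of ∆HD-only peaks, and an FL summit other than its own within 10 kb of 21.9% (21.3 to 22.5) of shared ones. When both lists were merged into 53131 sites, 8851 clusters formed. Of these, 51.6% (50.6 to 52.7) joined shared and ∆HD-only sites, 27.8% held only ∆HD-only sites and 11.5% included an FL-only site. The cluster with the most ∆HD-only sites spanned 37.1 kb of chromosome 19 (28225103 to 28262250), with 18 ∆HD-only sites and 1 shared site. One on chromosome 9 (108556694 to 108585153), 114 kb from TMEM38B, held 14 ∆HD-only and 2 shared sites. A cluster of 4 sites in PHEX on the X chromosome held 3 FL-only sites and 1 ∆HD-only site. These 3 clusters were chosen after their counts were seen.

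Chromosomes differed less than A/T classes did. The ∆HD-only share of ∆HD peaks lay between 54.6% (52.9 to 56.3) on chromosome 8 and 64.3% (62.3 to 66.3) on X, and the FL-only share of FL peaks between 8.11% (7.03 to 9.30) on chromosome 1 and 16.7% (12.6 to 21.6) on chromosome 20. Across the 22 autosomes and X the Spearman correlation of the ∆HD-only share with chromosomal A/T content was 0.38, with an interval from -0.04 to 0.68, and that of the FL-only share was 0.06. These are descriptions over 23 chromosomes, which share both libraries. Peak density itself went with A/T content in both lists, with correlations of 0.71 for FL and 0.75 for ∆HD.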

How the data were processed

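Peak lists of FL and ∆HD Satb1 ChIP-seq in MCF10A were analysed, with N-C1, camptothecin, ICRF-193 and 2 ATAC-seq lists for comparison. The authors trimmed reads with cutadapt, aligned them to hg19 with Bowtie2 and used MACS2 for peak calling, with input DNA as the control. The versions of Bowtie2 and MACS2 and the pooling of duplicates are not given in the sources used here. The deposited fold enrichment is a ratio to the local background by the authors, and the deposited −log10 p and −log10 q values are theirs from MACS2. The smallest −log10 q was 1.45 in the FL list and 1.46 in the ∆HD list. Both lists thus hold peaks less significant than the false discovery rate that the study states as its peak calling setting. Under data quality the study also names a looser rate, which these values meet. A peak list hides signal below its threshold, the study gives a range of reads over its ChIP libraries but no depth for each list, and absence from a list does not show absence of binding.

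Overlaps, sequence, distances and annotation (GENCODE 44 lifted to GRCh37, protein-coding genes with a symbol) were computed with Python 3.11.15, numpy 2.4.6, pandas 2.3.3, scipy 1.17.1 and pysam 0.24.0, and tested on simulated data against bedtools 2.31.1. A/T content could be read at 22858 FL peaks. Shares carry Clopper-Pearson intervals, differences of shares Newcombe intervals, means normal intervals and medians order-statistic intervals across peaks. Named were the 10 genes with the most ∆HD-only peaks, the 10 strongest peaks of each unshared class, the 8 largest gains and losses of percentile rank among pairs with a peak in the top 10% of its list, the 5 pairs with the highest summed percentile, and the 4 members of each gene list with the most ∆HD peaks, some by range only. A few of these are not reported here. Sequences were taken in that order, leaving out chromosome 8 and exons. Promoter accessibility of markers was read within 1000 bp of a start. The members and lists were chosen with earlier results of these data known. The FL-only sequence comparisons, the words of 6 bases, the tandem repeats and the rank-change groups were added after seeing the data. Alternatives covered the overlap rule, the peak threshold, list length, sequence windows, gene counting and ATAC-seq rules.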

Additional observations from a re-analysis of the deposited data

How the results depend on the processing

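Of the differences whose interval excluded 0, 2 changed direction with the processing. Accessibility in cells expressing Satb1, ∆HD-only minus shared ∆HD, went from -0.607 to 0.561 points when the summit had to lie in an ATAC-seq peak, and host gene length from 20389 to -9326 bp when each gene was counted once per class. Native accessibility and the share within 10 kb, whose intervals included 0, also changed sign in settings given below. The causes were not tested.

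With reciprocal overlap of at least 50%, 74.8% of FL peaks and 33.9% of ∆HD peaks were shared. ∆HD-only minus shared was then 0.357 points for native accessibility, -0.0596 for accessibility with Satb1, -2.41 points of A/T, -0.795 motifs, -111 bp of width and 0.479 points within 10 kb of another ∆HD peak. The correlation of fold enrichment was 0.60 and the ICRF-193 share of ∆HD-only peaks 31.7%. FL-only minus shared was 2.10 points of A/T and 10.2 points of TTAATAA, and 6.4% of FL peaks of 85% A/T or more were shared.

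With fold enrichment of at least 5 in both lists the shared shares were 85.8% and 45.3%, the ∆HD differences -1.78 points, -0.680 motifs and -105 bp, the ICRF-193 share 40.1%, the FL differences 5.78 and 18.2 points and the share at 85% A/T 7.39%. With lists of equal length these were 72.5%, 72.0%, -1.66 points, -0.640 motifs, -72 bp, 52.5%, 3.85 and 12.3 points and 5.33%, and the correlation was 0.61. With summits within 100 bp, 82.9% and 37.5% were shared, the FL A/T difference was 4.82 points and the share at 85% A/T 3.47%.

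Other settings gave 0.697 points of native accessibility at summits, -0.172 with Satb1 at ATAC-seq peaks of −log10 q of at least 5, -1.51 and 4.12 points of A/T in 400 bp, -0.604 motifs in 150 bp, -0.287 CTAATAR matches, and 0.185 points within 50 kb. Settings for FL-only peaks and tandem repeats were chosen after seeing the data. No paired analysis was possible because each construct has 1 list. The depth of each list is unknown, and absence from a list does not show absence of binding.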
